A study of Mus musculus with 20 samples.

Results

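The relation between striatal gene expression and home-cage activity was examined among mice of the same line and the same treatment. All 20 of the 20 mice of the series entered, 10 of the High-Active line and 10 of the Control line. For each gene, the counts were related to the distance the mouse had travelled in its home cage at re-phenotyping, with the means of the 4 line by treatment groups removed, so that neither the difference between the lines nor that between the treatments could contribute. The mice were adult males of generation 17 of a breeding experiment that started from an outbred population made by intercrossing 8 inbred strains, with the High-Active line bred for high home-cage activity. All were tracked by video at about 3 months of age and again at about 6.5 months over 6 days, and on day 7 they were injected with saline or with 0.25 mg/kg d-amphetamine sulfate (5 mice per line and treatment). The dorsal and ventral striatum of both hemispheres was taken 2 h after the injection. The re-phenotyping distance therefore preceded the injection, and the RNA came from the end of the same week.

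The striatum is the input nucleus of the basal ganglia. Most of its neurons are medium spiny neurons, which receive glutamate from the cortex and thalamus and dopamine from the midbrain, and whose direct and indirect pathways promote and restrain movement. Neuronal activity switches on immediate early genes such as Fos and Arc within minutes, and amphetamine releases dopamine in this nucleus. A comparison of lines mixes genes linked to activity with all other differences fixed by breeding and drift, whereas differences among mice of 1 group are free of the difference between the line means.

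The 10 Control mice travelled 0.200 to 0.474 km/day (median 0.259), a 2.37-fold range, and the 10 High-Active mice travelled 0.583 to 3.18 km/day (median 1.08), a 5.46-fold range. The lines did not overlap. In Control saline mice, the distances of mice 448, 477, 883, 469 and 411 were 0.200, 0.215, 0.276, 0.304 and 0.386 km/day. Control amphetamine mice 457, 454, 409, 369 and 407 had travelled 0.238, 0.247, 0.251, 0.268 and 0.474 km/day. Of these 5, 4 lay close together and mouse 407 stood apart. High-Active saline mice 483, 886, 499, 871 and 197 reached 0.583, 0.744, 0.965, 1.13 and 1.16 km/day. High-Active amphetamine mice 487, 415, 872, 192 and 905 reached 0.628, 1.03, 1.16, 1.36 and 3.18 km/day, so that mouse 905 had travelled more than any other mouse of the series. Within groups the SD of log2 distance was 0.60 in the High-Active and 0.36 in the Control line.

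**Figure D1:**
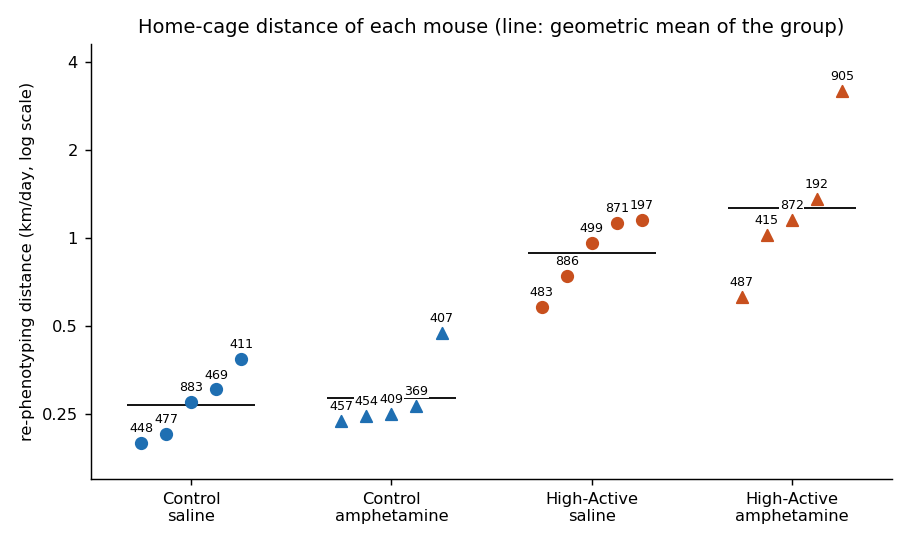
Home-cage distance at re-phenotyping in km/day (log axis) of each mouse in the 4 groups of 5, with horizontal bars at the geometric means. Every High-Active mouse lies above every Control mouse, and mice 407 and 905 stand above the rest of their groups.

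A few mice carried much of this spread. After removal of the group means, the High-Active mice held 73.9% of the sum of squares of log2 distance and the Control mice 26.1%. Mouse 905 alone held 36.2% and mouse 487 held 20.8%, while in the Control line mouse 407 held 42.1% and mouse 411 held 21.3% of that line's sum. The mice also shared parents. In the High-Active line there were 5 families among the 10 mice, with a full brother for 9 of the 10, and 82.1% of the sum of squares of their log2 distance lay between families. Mice 487 and 483, the lowest of the 2 High-Active groups, had the same parents, as did mice 905 and 197, the highest of these groups. In the share between families, a mouse without a brother counts wholly as between families, and the level expected by chance was not computed. In the High-Active line, distance and family can hardly be told apart. The Control line had 8 families among its 10 mice, with 28.0% of the sum of squares between families, and the full brothers 448 and 407 were the lowest saline and the highest amphetamine mouse. All p-values below measure the spread between these mice.

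Distance at re-phenotyping was set against 4 other measures of the same mice, each over all 20 mice and over each line (12 relations, with the group means removed). The distance tracked after the injection, in which the labels name no unit, gave r = 0.692 and rho = 0.386 over 20 mice (permutation p = 0.0161 and 0.138; 0.193 and 0.631 after Benjamini-Hochberg adjustment over the 12 relations), and r was 0.231 without mice 487 and 905. It gave r = 0.757 in the High-Active mice (exact permutation p = 0.0628) and 0.487 in the Control mice (exact permutation p = 0.160), where r was −0.136 and −0.690 without the 2 mice farthest out. The relation over all mice thus rested on mice 487 and 905. Body mass gave r = −0.717 and rho = −0.612 in the High-Active mice (exact permutation p = 0.0460 and 0.0860, adjusted 0.211 and 0.631, r = −0.466 without mice 487 and 905) and r = −0.0645 in the Control mice. The distance at the first phenotyping gave r = 0.192 over 20 mice (permutation p = 0.502), and the number of reads counted on genes gave r = −0.135 (permutation p = 0.630). None of the 12 relations passed an adjusted threshold of 0.1.

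Between 32388971 and 53710713 reads were counted on genes per mouse, and 14792 genes passed a threshold of 1 CPM (counts scaled to the size of the library) in 3 or more mice. Every library had high levels of genes that define medium spiny neurons. The dopamine signaling regulator Ppp1r1b was at 9.78 to 10.71 log2 CPM, the enkephalin precursor Penk at 9.88 to 10.69, and the dopamine D1 receptor Drd1 at 7.41 to 8.17. Slc17a7, the vesicular glutamate transporter of cortical neurons, varied more, from 6.22 to 9.41 log2 CPM. The tissue is a mixture of cells, in which fewer cells of a type and less RNA per cell cannot be told apart.

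No gene was related to distance over all 20 mice at an adjusted p under 0.1 in edgeR's quasi-likelihood test with Benjamini-Hochberg adjustment over the 14792 genes (0 genes, 0%). The smallest adjusted p was 0.476. At an unadjusted p under 0.05 there were 743 genes (5.02%), of which 346 (2.34%) had higher and 397 (2.68%) lower counts in more active mice. The histogram of p was close to even over this set. DESeq2 called 8 genes, 2 with positive and 6 with negative slopes, edgeR's likelihood-ratio test with robust dispersions called 20, and limma-voom with the family as a random block called 0. The count at an unadjusted p under 0.05 was 1501 without mouse 905, 361 without mouse 487 and 586 without mouse 407, and in each of the 20 fits that left out 1 mouse the quasi-likelihood test called 0 genes. When the group means were left in, so that the lines could differ, 493 genes were called. Of the 2149 genes that differed between the lines in a model without distance, 0 were called for distance within groups and 121 (5.63%) had an unadjusted p under 0.05, near the share over all genes.

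**Figure D2:**
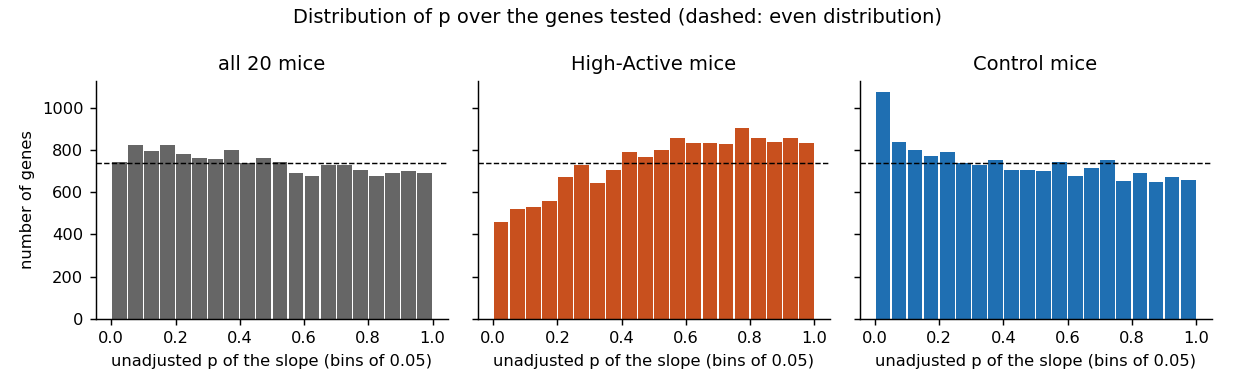
Number of the 14792 genes (vertical axis) in each interval of unadjusted p for the slope on log2 distance, over all 20 mice and in each line alone, with a dashed line at an even distribution. The first interval holds 743 genes over all mice, 458 in the High-Active and 1072 in the Control mice.

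The genes with the smallest p are given here as values, since none of them passed the test. A slope is the log2 change in expression per doubling of distance. Its SE was derived from the quasi-likelihood test, as the size of the slope divided by the square root of the F statistic. Among the 10 genes with positive slopes, Itga7 (the integrin alpha-7 subunit, a receptor for laminin) had a slope of 0.31 ± 0.061 (SE, 20 mice, edgeR quasi-likelihood, adjusted p = 0.476). In rising order of distance, Itga7 was at 3.05, 3.57, 3.61, 3.55 and 3.70 log2 CPM in the Control saline mice and at 3.35, 3.32, 3.46, 3.43 and 3.56 in the Control amphetamine mice. In the same order, its levels were 2.80, 3.00, 3.07, 3.37 and 3.08 in the High-Active saline and 3.19, 3.34, 3.63, 3.46 and 3.85 in the High-Active amphetamine mice. The least active mouse had the lowest level in 3 of the 4 groups, and in 3 of the 4 groups the most active mouse had the highest. The lines overlapped, and the slopes were 0.30 ± 0.072 in the High-Active and 0.31 ± 0.13 in the Control mice.

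Wee1, a kinase that holds back entry into mitosis, had a slope of 0.33 ± 0.066 (edgeR quasi-likelihood, adjusted p = 0.476), which ranged from 0.28 without mouse 905 to 0.37 without mouse 411. Its 2 highest levels, 4.38 and 4.63 log2 CPM, were those of the brothers 197 and 905. Arhgap44, a protein found in dendritic spines, varied little, between 6.74 and 7.12 log2 CPM over all mice, with a slope of 0.12 ± 0.031 (edgeR quasi-likelihood, adjusted p = 0.924). In all 5 High-Active saline and all 5 High-Active amphetamine mice the level of Arhgap44 followed the order of distance. The other positive slopes among the 10 were 0.31 ± 0.081 for Skp2 (the substrate receptor of a ubiquitin ligase), 0.32 ± 0.084 for Ptpru (a receptor tyrosine phosphatase), 0.44 ± 0.12 for Shisa2, 0.21 ± 0.059 for Cox17 (a copper chaperone for cytochrome c oxidase), 0.22 ± 0.064 for Rgl2, 0.21 ± 0.063 for Mpdz (a scaffold protein with many PDZ domains) and 3.52 ± 0.90 for the pseudogene Chchd2-ps. Chchd2-ps had 157 reads in mouse 905 and at most 4 in the other 9 High-Active mice, and its slope rests on a few mice.

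Among the 10 genes with negative slopes, the smallest p of the whole table was that of Cep128 (a protein of the centriole's appendages), with a slope of −0.28 ± 0.053 (edgeR quasi-likelihood, unadjusted p = 4.54e-05, adjusted p = 0.476). In rising order of distance, Cep128 was at 3.21, 3.22, 3.16, 2.99 and 2.83 log2 CPM in the Control saline mice and at 3.32, 3.22, 3.10, 3.17 and 2.91 in the Control amphetamine mice. The High-Active saline mice had 3.23, 3.35, 3.01, 3.13 and 2.95, and the High-Active amphetamine mice 3.42, 3.16, 2.89, 3.08 and 2.81. In each of the 4 groups the most active mouse had the lowest level of Cep128. Its slope lay between −0.35 and −0.26 when each mouse was left out in turn.

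Kif6, a kinesin motor, had a slope of −0.63 ± 0.13, with 1.85 log2 CPM in mouse 448 and 0.0040 in its full brother 407. For the nuclear kinase Vrk1 the slope was −0.54 ± 0.13, for Olfml1 −0.59 ± 0.14, and for the homeobox factor Pbx4 −0.40 ± 0.091. Fam204a (−0.26 ± 0.064), Cc2d1b (−0.20 ± 0.050), the zinc finger protein Zfp740 (−0.15 ± 0.037) and Ubash3a, described below, were also among the 10. All 20 of these genes had slopes of the same sign in both lines, which their choice over both lines together favors, and 1 of the 20 differed between the lines. DESeq2's 8 calls included Itga7, Wee1, Cep128, Kif6, Olfml1 and Vrk1.

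Correlations of group-centred log2 CPM with group-centred log2 distance were computed for 76 genes over 3 sets of mice (228 relations). The genes had been picked for small p in these mice, so these values are not independent evidence. Over 20 mice, Itga7 gave r = 0.801 and rho = 0.785 (permutation p = 4.00e-05 and 1.60e-04, adjusted over the 228 relations 0.00570 and 0.0182), and r was 0.7103 without mice 487 and 905. Cep128 gave r = −0.842 and rho = −0.892 (permutation p = 5.00e-05 and 1.00e-05, adjusted 0.00570 and 0.00228), and r = −0.798 without the same mice. For Wee1, r went from 0.769 to 0.527 when mice 487 and 905 were left out, and for Arhgap44 from 0.742 to 0.755.

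**Figure D3:**
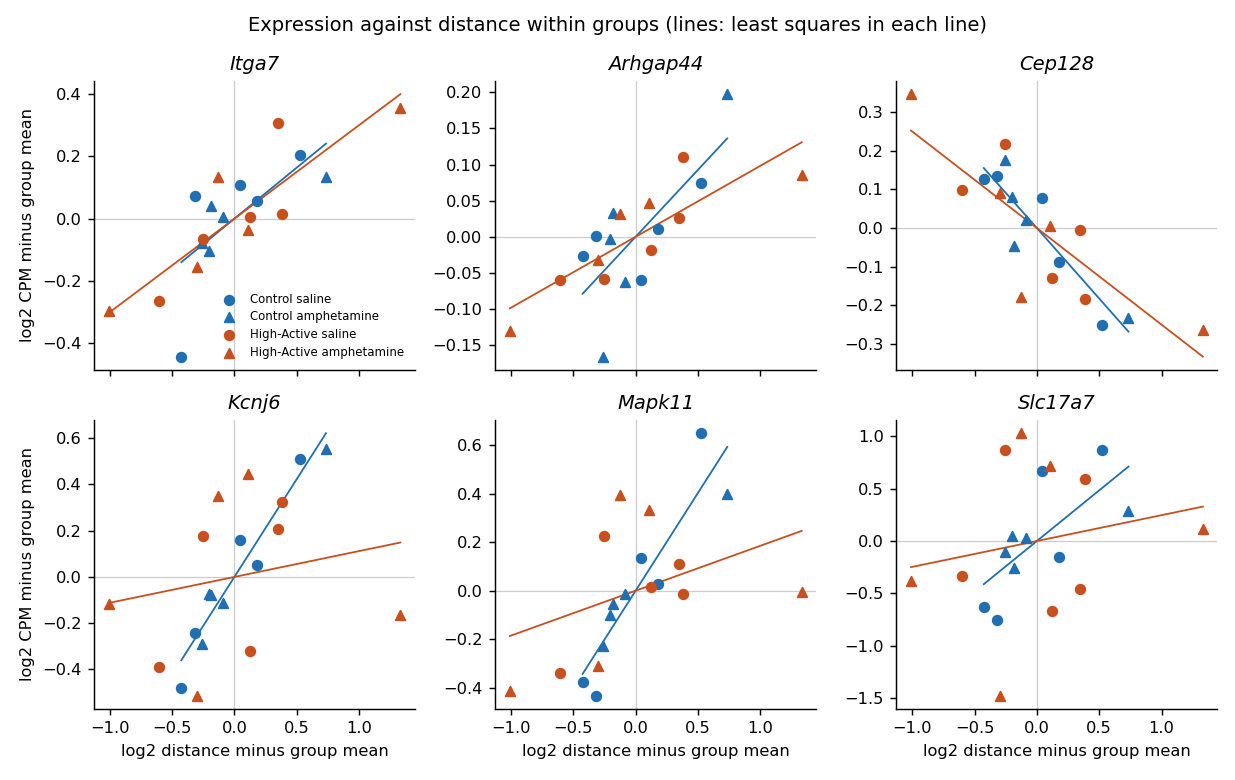
Group-centred log2 CPM (vertical axes) of 6 genes against group-centred log2 distance (horizontal axes) in the 20 mice, with a least-squares line for each breeding line. Itga7, Arhgap44 and Cep128 have like slopes in both lines, whereas Kcnj6, Mapk11 and the cortical marker Slc17a7 have steeper slopes in the Control mice. Itga7, Arhgap44 and Cep128 were picked over both lines together, and Kcnj6 and Mapk11 in the Control mice. This choice favors such slopes, and none of the 6 genes passed the adjusted threshold for a difference of slopes.

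In the 10 High-Active mice alone, 2 genes (0.0135%) fell with distance at an adjusted p under 0.1, Rps13-ps1 (edgeR quasi-likelihood, adjusted p = 0.00213) and Ubash3a (adjusted p = 0.0666). At an unadjusted p under 0.05 there were 458 genes (3.1%), 185 higher (1.25%) and 273 lower (1.85%) in more active mice. Both calls rested on mouse 487, the least active amphetamine mouse of the line. Rps13-ps1 is a processed pseudogene at chr8:87047689-87048226 on the plus strand of GRCm38, a copy of the gene for ribosomal protein S13 that carries no introns. It had 271 reads in mouse 487 and 0 or 1 in the other 9 High-Active mice, its full brother 483 included. The Control mice had 164 to 527 reads. The slope of −9.07 ± 0.62 therefore compares 1 mouse with 9 that are at or near 0, and its size depends on how zero counts are handled. Without mouse 487 the adjusted p was 1.00. DESeq2 called 15 genes in the High-Active mice but not Rps13-ps1 (slope −4.47 ± 1.92 with DESeq2's own SE, adjusted p = 1.00). Limma-voom with the family block called 0 genes, and the rank of the distance in place of its log gave 0 calls. Over the 10 mice Rps13-ps1 gave r = −0.667 (exact permutation p = 0.203).

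Because Rps13-ps1 resembles its parent gene, the authors' counting could have placed reads of one on the other. The sequences of both transcripts were compared in the GENCODE M21 annotation of GRCm38. Of the 532 bases aligned, 11 differed (97.9% identity, 0 gaps), and 337 of the 439 stretches of 100 bases in Rps13-ps1, the length of a read, occurred without a difference in Rps13. The parts of the transcripts outside the coding sequence were not searched for the stretch below. Within the coding sequence of Rps13, this stretch held the most differing bases of any 100 bases in a row. It is that of Rps13-ps1 at chr8:87048049-87048148 (plus strand, transcript bases 361 to 460) with the matching bases 418 to 517 of Rps13, and capitals mark the 2 differing bases.
Rps13-ps1: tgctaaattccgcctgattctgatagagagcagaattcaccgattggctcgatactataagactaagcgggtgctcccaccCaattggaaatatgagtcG
Rps13: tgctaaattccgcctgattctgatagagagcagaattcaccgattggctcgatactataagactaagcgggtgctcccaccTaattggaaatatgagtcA
The level of Rps13 itself was 5.81 to 6.17 log2 CPM in the Control and 6.02 to 6.45 in the High-Active mice. The count of Rps13-ps1 is uncertain for this reason, and the part of misplaced reads was not tested.

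Ubash3a (chr17:31207873-31246892, plus strand), a regulator of T cell receptor signaling, showed a similar pattern. It had 128 reads in mouse 487 and 0 or 1 in the other 9 High-Active mice. Among the Control mice, 6 had 62 to 103 reads and 4 had 0 to 2. The 4 Control mice with almost no reads were 411, 454, 369 and 407, which include the most active mouse of both Control groups. In the High-Active mice the slope was −5.93 ± 0.72, and without mouse 487 it was −1.64 with an adjusted p of 1.00 (edgeR quasi-likelihood). Its slope over all 20 mice was −4.76 ± 1.10 (adjusted p = 0.836).

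Several of the other genes with small p in the High-Active mice took 1 of 2 levels. Ptges3-ps, a pseudogene of the co-chaperone p23, was at 1.81 to 2.31 log2 CPM in 9 High-Active mice and at 4.15 in mouse 905, while 9 Control mice lay between 4.06 and 4.99 and mouse 457 was at 1.63. Its slope was 0.92 ± 0.16 (edgeR quasi-likelihood, adjusted p = 0.920). Rpl6l, annotated as a processed pseudogene of a ribosomal protein gene, was at 4.13 in mouse 905 and at most 0.83 in the other High-Active mice, and among the Control mice 5 were at 3.84 to 4.96 and 5 at −0.03 to 0.55. Without mouse 905 the slope of Rpl6l in the High-Active mice was −0.028, against 1.42 ± 0.30 with it. Gh (growth hormone), with a slope of 3.66 ± 0.81, had 179 reads in mouse 905, and 282 and 302 reads in Control mice 369 and 883. Papln had a slope of 0.83 ± 0.16 and Wee1 of 0.38 ± 0.080. On the negative side, Drc3 (a subunit of the dynein regulatory complex of cilia) had a slope of −0.54 ± 0.098 and Fam204a −0.23 ± 0.049. None of these genes passed the adjusted threshold.

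**Figure D4:**
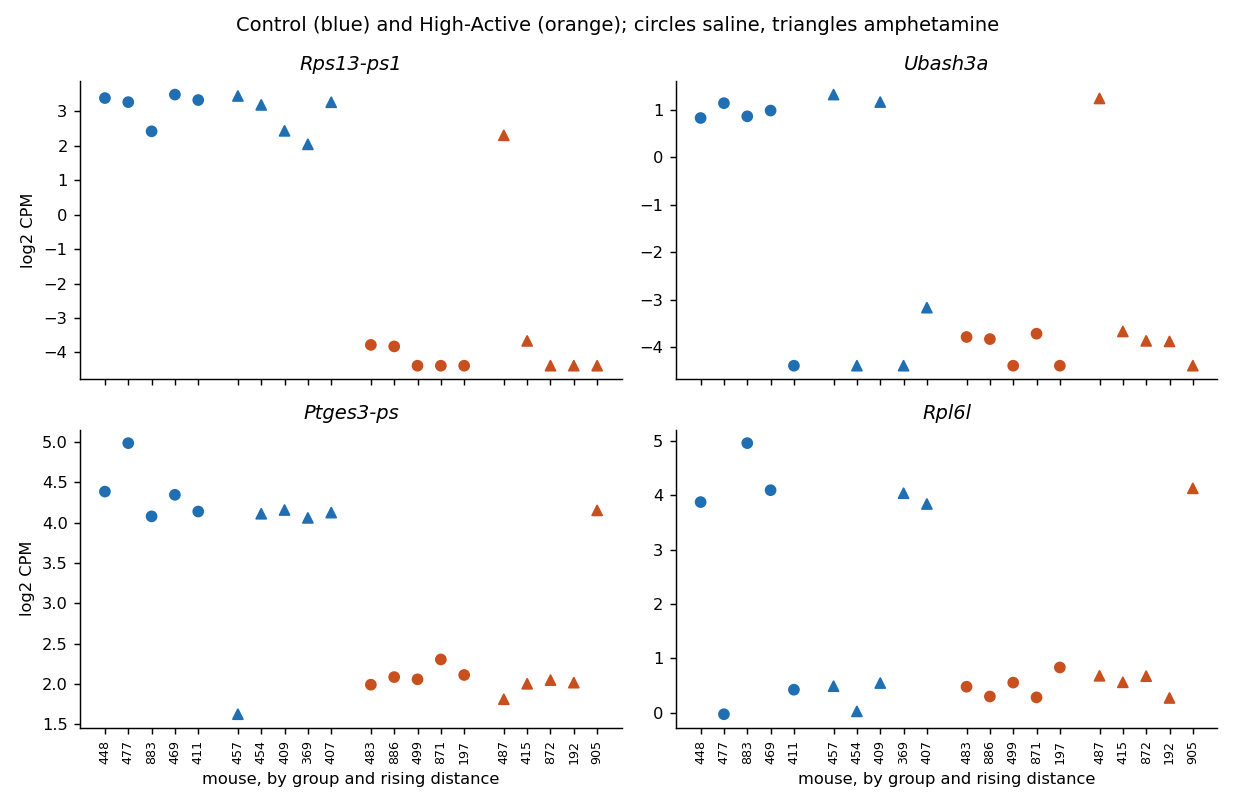
Level in log2 CPM of 4 genes in each mouse, ordered by group and then by rising distance. In the High-Active line a single mouse stands apart in each panel, mouse 487 for Rps13-ps1 and Ubash3a and mouse 905 for Ptges3-ps and Rpl6l, while the Control mice hold both levels of Ubash3a and Rpl6l.

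In the 10 Control mice alone, no gene passed the quasi-likelihood test at an adjusted p under 0.1 (0 genes, 0%), and the smallest adjusted p was 0.142. At an unadjusted p under 0.05 there were 1072 genes (7.25%), 621 higher (4.2%) and 451 lower (3.05%) in more active mice. With DESeq2's size factors in place of TMM the split was 696 to 404. Other tools made calls here. DESeq2 called 144 genes (120 higher), the likelihood-ratio test called 174 (142 higher) and limma-voom with the family block called 46 (40 higher). Without mouse 407 the quasi-likelihood test called 4 genes, all higher with distance, and it called 1 gene without mouse 448 and 1 without mouse 454.

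Positive slopes with the smallest p in the Control mice were those of C1ql3, Kcnj6, Mapk11, Bdnf and Efhd2. C1ql3, a secreted protein of synaptic clefts, had a slope of 1.06 ± 0.13 (edgeR quasi-likelihood, unadjusted p = 1.20e-05, adjusted p = 0.142). Kcnj6, the GIRK2 potassium channel through which dopamine and other receptors inhibit neurons, had a slope of 0.84 ± 0.11 (adjusted p = 0.142). In rising order of distance, Kcnj6 was at 2.20, 2.44, 2.85, 2.73 and 3.19 log2 CPM in the Control saline and at 2.99, 3.21, 3.20, 3.17 and 3.83 in the Control amphetamine mice. The least active mouse of both groups was the lowest and the most active the highest. In the same order the High-Active saline mice had 1.96, 2.53, 2.03, 2.56 and 2.68, and the High-Active amphetamine mice 2.83, 2.43, 3.30, 3.39 and 2.78, where mouse 905 was not the highest. Over the Control mice Kcnj6 gave r = 0.963 (exact permutation p = 0.00153), with r = 0.888 without mice 407 and 411, and in the High-Active mice r = 0.206 (exact permutation p = 0.656).

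Mapk11, the beta form of the p38 kinase, had a slope of 0.81 ± 0.12 in the Control mice (edgeR quasi-likelihood, adjusted p = 0.266), the neurotrophin Bdnf 1.11 ± 0.19 (0.368) and the calcium-binding protein Efhd2 0.62 ± 0.11 (0.368). Without mouse 407 the slope of Mapk11 was 1.10 with an adjusted p of 0.0736. The 5 genes with negative slopes were Gpr83 (an orphan G protein-coupled receptor, −0.37 ± 0.058), Abcg2 and Abcb1a (efflux transporters of brain vessel walls, −0.42 ± 0.078 and −0.35 ± 0.072), the transcription factor Klf15 (−0.33 ± 0.063) and the mitochondrial tRNA for proline mt-Tp (−0.95 ± 0.19). Mouse 407 had the lowest level of the 10 Control mice for each of these 5 genes. All 10 of these Control genes were among the 46 calls of limma-voom with the family block. The genes had been picked for small p in the same mice, so this is not independent evidence. That fit used a family correlation of 0.47, which rests on the 4 Control mice with a brother.

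Markers of cortical excitatory neurons had positive slopes in the same Control mice, although none passed the adjusted threshold. Of the 12 markers, 11 had positive slopes with a median of 0.89 (1.55 without mouse 407), and 8 of the 12 had an unadjusted p under 0.05, against 7.25% of all genes. In the High-Active mice the median was 0.16 (0.47 without mouse 905). Their summed level was 899.7 to 1719.8 CPM in the Control and 600.8 to 1868.7 CPM in the High-Active mice, and no marker was at 0 in any mouse. Slc17a7 was at 7.65, 7.52, 8.95, 8.13 and 9.15 log2 CPM in the Control saline mice in rising order of distance, and at 8.79, 8.94, 8.63, 8.92 and 9.18 in the Control amphetamine mice. The slope of Slc17a7 was 0.99 ± 0.32 in the Control and 0.19 ± 0.42 in the High-Active mice. With scores of the cortical and oligodendrocyte markers in the model, the slope of C1ql3 was 0.96 ± 0.21, that of Kcnj6 0.68 ± 0.17, that of Bdnf 0.90 ± 0.27, that of Mapk11 0.45 ± 0.14 and that of Efhd2 0.26 ± 0.083 (edgeR quasi-likelihood, adjusted p from 0.811 to 0.864). Among these 5 genes, the slopes of Efhd2 and Mapk11 moved most.

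The lines were compared for the genes picked in one of them, since the mice of the other line had no part in the choice. Of the 10 genes picked in the High-Active mice, 6 had a slope of the same sign in the Control mice and 2 had an unadjusted p under 0.05 there, 1 of them with the same sign. The other was Drc3, with the opposite sign (0.82 ± 0.36). Of the 10 genes picked in the Control mice, 8 had a slope of the same sign in the High-Active mice and 0 had an unadjusted p under 0.05. Across the 14792 genes the slopes of the 2 lines had Pearson's r = 0.112 and Spearman's rho = 0.213, where genes are not independent replicates, and 57.5% of genes had the same sign. In all, 36 genes had an unadjusted p under 0.05 in both lines, and 20 of the 36 had the same sign. They were 7.86% of the 458 High-Active genes, where 7.25% of all genes had such a p in the Control mice. They were also 3.36% of the 1072 Control genes, where 3.1% of all genes had such a p in the High-Active mice. The overlap was thus near the share over all genes. The median SE of a slope was 0.082 in the High-Active and 0.12 in the Control mice, so that slopes were less precise in the line with the narrower range of distances.

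A direct test of the difference of the slopes, High-Active minus Control, called 1 gene (0.00676%), and 458 genes had an unadjusted p under 0.05 (3.1%). The called gene was Rps13-ps1 with a difference of −9.30 (edgeR quasi-likelihood, adjusted p = 6.10e-05). As stated above, it passed the CPM threshold only through Control mice. It was not called without mouse 487 (−3.22, adjusted p = 0.999) or by limma-voom with the family block (−4.65, adjusted p = 1.00). The next smallest p were those of Nckap1l, a regulator of actin in blood-derived cells and microglia (slope −0.16 ± 0.056 in the High-Active and 0.24 ± 0.086 in the Control mice, unadjusted p of the difference 5.63e-04), and of Cav1, the main protein of caveolae in vessel walls (0.15 ± 0.092 and −0.54 ± 0.13, unadjusted p of the difference 7.53e-04). Neither passed the adjusted threshold. Cav1 in the Control mice was at 3.68 to 4.01 log2 CPM except in mouse 407, where it was at 3.21.

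Lists of genes that respond to neuronal activity were described by the number of positive slopes and their median, beside a median of 0.0007 over all genes for the 20 mice. All 22 immediate early genes tested had positive slopes over the 20 mice, with a median of 0.27, and 1 of the 22 had an unadjusted p under 0.05, Ptgs2 (cyclooxygenase-2, 0.47 ± 0.19), near the share of 5.02% over all genes. The receptor-like transcription factor Nr4a2 had the steepest slope of the list, 0.61 ± 0.29, while Fos (0.34 ± 0.32) and Arc (0.43 ± 0.34) had errors about as large as their slopes. In the Control mice 18 of 22 were positive with a median of 0.26, which was 0.029 without mouse 407, and in the High-Active mice the median was 0.24, which was 0.49 without mouse 905. Over all mice the median was −0.015 once the cortical and oligodendrocyte scores were in the model. The mean level of the list gave r = 0.360 with distance over the 20 mice.

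The 12 MAPK phosphatases and feedback inhibitors, which turn off growth factor and ERK signaling, all had positive slopes, with a median of 0.18 over all mice, 0.084 in the High-Active and 0.39 in the Control mice. Spry4 (0.25 ± 0.10) and Spred3 (0.19 ± 0.084) had an unadjusted p under 0.05 over the 20 mice (5.02% of all genes did), and 4 of the 12 did in the Control mice (7.25% of all genes). The Control median was 0.086 without mouse 407 and 0.37 with the marker scores. With the same scores the median was 0.057 over all mice and −0.043 in the High-Active mice. Without mouse 905 the median was 0.31 over all mice and 0.29 in the High-Active mice. All 16 heat shock and chaperone genes had positive slopes with a median of 0.13, and Hspa8, the constitutive chaperone of the family, had an unadjusted p under 0.05 (0.19 ± 0.081). In the Control mice the median of this list was 0.17, and −0.11 without mouse 407. Of the 14 neurotrophic and plasticity genes, 11 had positive slopes (median 0.13), with Bdnf (0.66 ± 0.23) and Nptx1, a pentraxin that clusters glutamate receptors (0.40 ± 0.17), at an unadjusted p under 0.05. The median of this list was 0.17 in the Control mice (−0.00077 without mouse 407) and 0.068 in the High-Active mice (0.28 without mouse 905). Members of a list vary together in the same mice, so the number of like signs is not a number of independent observations.

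**Figure D5:**
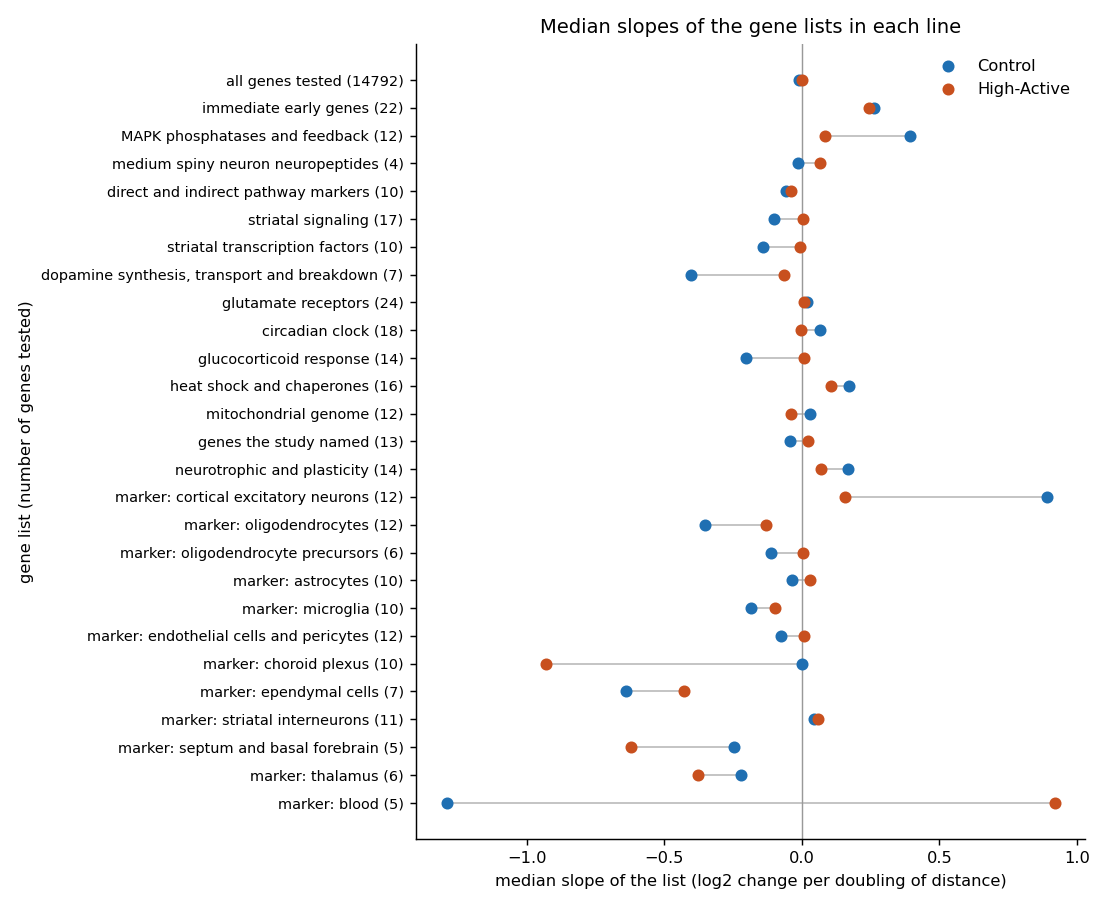
Median slope of each gene list (horizontal axis, log2 change per doubling of distance) in the Control mice (blue) and the High-Active mice (orange), with the number of genes tested in brackets. Immediate early genes lie at 0.26 in the Control and 0.24 in the High-Active mice, whereas the cortical markers are at 0.89 in the Control and 0.16 in the High-Active mice and the blood markers differ in sign.

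Genes that define the striatum's own neurons had median slopes near 0 over the 20 mice, but lower ones without mouse 905. Of the 4 medium spiny neuron neuropeptides, all had positive slopes with a median of 0.048, and the 2 members with the smallest p were the dynorphin precursor Pdyn (0.10 ± 0.11) and the substance P precursor Tac1 (0.053 ± 0.087). Both slopes were negative without mouse 905 (−0.031 and −0.073). Of the 10 direct and indirect pathway markers, 2 had positive slopes (median −0.046). The tyrosine phosphatase Ptprm (−0.11 ± 0.041) had an unadjusted p under 0.05, and the transcription factor Isl1 had a slope of −0.18 ± 0.098. Striatal signaling genes had 9 positive slopes of 17 with a median of 0.0016, and Arpp19, a phosphatase inhibitor, had a slope of 0.086 ± 0.090. Striatal transcription factors had 2 positive slopes of 10 with a median of −0.038, and Ebf1 (−0.11 ± 0.088) and Foxp2 (−0.074 ± 0.068) had the smallest p. Without mouse 905 the medians were −0.20 for the pathway markers, −0.22 for the signaling genes and −0.19 for the transcription factors, and in the High-Active mice −0.32, −0.34 and −0.28. In the Control mice the median was −0.015 for the neuropeptides (0.13 without mouse 407) and −0.057 for the pathway markers (−0.036). For the signaling genes it was −0.10 there (−0.096), with 4 positive slopes of 17. For the transcription factors it was −0.14 (−0.074), with 1 positive slope of 10.

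Among the 7 genes of dopamine synthesis, transport and breakdown tested, 3 had positive slopes and the median was −0.17. Slc18a2, the vesicular monoamine transporter whose transcript is made mainly in the cell bodies of midbrain neurons, had a slope of −0.66 ± 0.26, and Maoa, which breaks down monoamines, −0.19 ± 0.071, both at an unadjusted p under 0.05. Maoa was at 4.89 to 5.55 log2 CPM in the 20 mice. The median of the list was −0.066 in the High-Active mice (0.092 without mouse 905) and −0.40 in the Control mice (−0.25 without mouse 407), and −0.044 over all mice with the marker scores. Glutamate receptors had 14 positive slopes of 24 (median 0.019), and the kainate receptor subunits Grik3 (0.10 ± 0.048) and Grik4 (0.076 ± 0.047) had the smallest p. Clock genes had 10 positive slopes of 18 (median 0.0080), with Ciart at −0.22 ± 0.12 and Dbp at −0.16 ± 0.11. Glucocorticoid response genes had 5 of 14 (median −0.013), with Plin4 at −0.34 ± 0.18 and Arrdc2 at −0.21 ± 0.13. Genes of the mitochondrial genome had 4 of 12 (median −0.011), with mt-Nd5 at −0.072 ± 0.058 and mt-Nd3 at −0.080 ± 0.073. In the last 4 lists 0 members had an unadjusted p under 0.05 over the 20 mice.

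The 13 genes that the study named in its comparison of the lines had slopes from −0.11 to 0.17 over the 20 mice, 8 of them positive, with unadjusted p from 0.111 to 0.935. None had an unadjusted p under 0.05, against 5.02% of all genes, although 9 of the 13 differed between the lines in these data. Adgrl3 and Flrt3 were not among the 9 (edgeR quasi-likelihood without distance, adjusted p = 0.153 and 0.105). Gsk3b was among them (adjusted p = 0.033 in the same test), whereas the paper describes its expression as similar in both lines. The 13 genes were named from the same mice. Gm6180, a pseudogene of cofilin 1, had a slope of 0.030 ± 0.37, and Cfl1 itself 0.0042 ± 0.040. The error was small for Cfl1 and large for Gm6180. The latrophilin Adgrl3 had a slope of 0.084 ± 0.14 and its ligand Flrt3 of −0.016 ± 0.054. Ctnnb1 (beta-catenin, 0.023 ± 0.033) and Gsk3b, the kinase that marks it for breakdown (0.0080 ± 0.037), were near 0. Glo1 (glyoxalase 1) had the highest slope of the 13, 0.17 ± 0.15, and Rassf8 the lowest, −0.11 ± 0.093. In the Control mice alone, Flrt3 had a slope of −0.16 ± 0.052 (unadjusted p = 0.0129), and in the High-Active mice 0.029 ± 0.077.

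Markers of other cell types and neighboring tissue were described in the same way, and none passed the adjusted threshold. All 12 oligodendrocyte markers had negative slopes over the 20 mice with a median of −0.17, and 4 of the 12, among them Mog (−0.25 ± 0.090), had an unadjusted p under 0.05, against 5.02% of all genes. The median was −0.35 in the Control mice, and −0.53 without mouse 407. Their summed level was 4026 to 6933 CPM in the Control and 5572 to 7382 CPM in the High-Active mice. All 10 microglia markers had negative slopes (median −0.11, and −0.13 with the marker scores), and 2 of the 10 had an unadjusted p under 0.05. Their mean level gave r = −0.589 with distance over the 20 mice. In the Control mice their median was −0.18, and 0.00044 without mouse 407. Positive slopes were seen in 5 of 10 astrocyte markers (median 0.0025), 2 of 6 oligodendrocyte precursor markers (−0.034), 4 of 12 vessel markers (−0.021) and 5 of 11 striatal interneuron markers (−0.0068). Choroid plexus markers had 0 positive slopes of 10 (median −0.74), with 2 of the 10 at 0 in some mice and a summed level of 29.0 to 979.6 CPM. In the Control mice alone 5 of the 10 were positive with a median near 0 (1.85 without mouse 407). Ependymal (0 of 7, −0.46), septal (0 of 5, −0.60) and thalamic markers (0 of 6, −0.41) also had 0 positive slopes over the 20 mice. Of the 5 septal markers, 2 had an unadjusted p under 0.05 over the 20 mice. In the Control mice 2 of the 5 septal markers were positive (median −0.25, and 0.69 without mouse 407), the ependymal median was −0.64 (0.28 without mouse 407), and the thalamic median over the 20 mice was −0.16 without mouse 905. Blood markers had 5 of 5 positive slopes (median 0.55), but their median in the High-Active mice, 0.92, was −1.46 without mouse 905. The part of such tissue in the slopes of other genes was examined only through the cortical and oligodendrocyte scores.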

How the data were processed

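The authors aligned paired reads of the striatal RNA of 20 mice to GRCm38 with TopHat2 2.0.10 and deposited counts of reads per Ensembl gene from HTSeq 0.6.1, not normalized. The strand setting of the counting is not given in the sources used here. Reads assigned to no gene (15.97 to 17.49%) were left out.

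Genes over 1 CPM in at least 3 mice were normalized by TMM and fitted with edgeR 4.0.16 (quasi-likelihood, R 4.3.3) on 4 group means and log2 distance. The labels give no unit for the distance, and km/day is the unit in which the study's results give it. P-values were adjusted by Benjamini-Hochberg over all genes tested, with a threshold of 0.1. DESeq2 1.42.0 and limma 3.58.1 served as alternatives. Log2 CPM used a prior count of 2. Permutations were two-sided and exchanged distances within groups (100000 resamples over 20 mice, all exchanges over 10). The fits were tested on simulated data.

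Named are the genes called, filled up by p to 10 per direction over all mice and 5 per direction in each line (without symbols starting with Gm or ending in Rik), the 3 smallest p for the difference of slopes, the 2 smallest p of each list that is not a marker list and the genes the study named; a few others, such as Fos, were added after their values were seen. Members and lists were chosen with earlier results of these data known. 1 gene that this rule names is not reported here.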

Additional observations from a re-analysis of the deposited data

Results flagged for a closer look

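The slope on distance of Rps13-ps1 differed between the lines by −9.30 (High-Active minus Control, edgeR quasi-likelihood test of the difference, adjusted p = 6.10e-05), a value that rests on mouse 487. The other values in this part belong to mice that lay far from the other 4 of their group. Of 304 groups of 5 examined over the named genes, 29 held such a mouse. Chance flags about 1 in 20 groups of unselected genes, but many of these genes were picked for slopes that mice 407, 487 and 905 carry, so the number cannot be read against that rate.

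Mouse 407, the most active Control amphetamine mouse, stood apart in its distance (0.474 km/day, −1.08 on the log2 scale). It was lowest of its group in the log2 CPM of Abcg2 (3.32), Cav1 (3.21), Flrt3 (5.67), Gpr83 (6.32), Klf15 (4.21) and mt-Tp (0.44), and highest in that of Chchd2-ps (1.83), Drc3 (3.22), Kcnj6 (3.83) and Nptx1 (8.08). Mouse 905, the most active of the series (3.18 km/day), was highest of the High-Active amphetamine mice in Chchd2-ps (1.69), Cox17 (3.69), Ptges3-ps (4.15), Rgl2 (5.50) and Rpl6l (4.13) and lowest in Maoa (5.01). Mouse 487 of the same group was highest in Rps13-ps1 (2.30) and Ubash3a (1.24).

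The remaining values are spread over other mice. Among Control amphetamine mice these were Arpp19 in mouse 454 (9.71), Ctnnbip1 in mouse 369 (4.65) and Ptges3-ps in mouse 457 (1.63). In Control saline mice they were Arrdc2 (3.49) and Rps13-ps1 (2.42) in mouse 883, Fam204a in mouse 477 (4.71), Itga7 in mouse 448 (3.05), and Spred3 (6.26) and Ubash3a (−4.39, 0 reads) in mouse 411. In the High-Active line they were Gh in saline mouse 871 (0.53) and Gm6180 in amphetamine mouse 192 (−1.68), which had 13 reads of Gm6180 where the other 9 High-Active mice had 390 to 801.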

How the results depend on the processing

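Over all 20 mice, DESeq2 called 8 genes, the likelihood-ratio test 20, and the model without group means 493, against 0 in the quasi-likelihood test. The 2 High-Active calls became 15 with DESeq2, 42 with the likelihood-ratio test, 3 with the distance in km/day, and 0 with ranks, with limma-voom and the family block, or with body mass, marker scores or the first phenotyping distance added. The 0 Control calls became 144, 174 and 46 with DESeq2, the likelihood-ratio test and limma-voom, and the 1 gene called for the difference of slopes became 2, 6 and 0. Leaving out each mouse in turn gave 0 to 0 calls over all mice, 0 to 2 in the High-Active mice (0 without mouse 487, and 1 without 192, 197, 415, 499, 872 or 905), 0 to 4 in the Control mice (4 without 407, and 1 without 448 or 454) and 0 to 1 for the difference (0 without 487). In the other alternatives, 28 of 44 such counts stayed within 1.5 times. The cause of these differences was not tested.

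The slopes over all mice that changed sign were all smaller than 2 SE. With km/day they were Foxp2 (0.021), Cfl1 (−0.016), Flrt3 (0.060) and Glo1 (−0.011), and with ranks Pdyn (−0.00205), Tac1 (−0.017), Adgrl3 (−0.016), Gm6180 (−0.036), Gsk3b (−0.0064) and Tmem44 (−0.00398). Limma-voom turned Gm6180 (−0.14). Body mass turned Ctnnb1 (−0.016), Flrt3 (0.000189) and Gm6180 (−0.081), the marker scores Tac1 (−0.031), Amotl2 (0.0021), Cfl1 (−0.046), Ctnnbip1 (0.0015) and Gm6180 (−0.086), and the first phenotyping distance Cfl1 (−0.000484) and Tmem44 (−0.010). Leaving out 1 mouse gave ranges of −0.031 to 0.16 for Pdyn, −0.073 to 0.093 for Tac1, −0.011 to 0.12 for Arpp19, −0.22 to 0.20 for Adgrl3, −0.011 to 0.046 for Cfl1, −0.15 to 0.021 for Flrt3, −0.38 to 0.11 for Gm6180, −0.061 to 0.035 for Gsk3b and −0.16 to 0.057 for Tmem44. In the High-Active mice Rpl6l ranged from −0.028 (without mouse 905) to 1.83.

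The groups share no replicate numbers, so no analysis paired by these numbers was possible. Full brothers were not compared as pairs. The families that some mice share were fitted as a random block in limma-voom only, and the quasi-likelihood tests treated brothers as independent. With 10 mice a line, of which a few held most of the spread in distance, slopes of single genes in the Control mice had a median SE of 0.12, which limits their precision. Distance was measured before the injection, and in the High-Active line it can hardly be told apart from family.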
